A study of Mus musculus with 32 samples.

Results

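Fetal oocytes exposed to di-(2-ethylhexyl) phthalate (DEHP) were compared with oocytes of vehicle controls. The members are the 2 arrays labelled as G1R DEHP females, all those given, set against the 3 arrays labelled as G1R oil females, out of 11 female arrays and 32 arrays in the series. The series asked whether endocrine disruptors given to pregnant mice (G0) altered the germ cells of their fetuses (G1) and of the generation after. Besides DEHP and oil it holds oocytes exposed to bisphenol A (BPA, 3 arrays) and to vinclozolin (VZ, 3 arrays), and prospermatogonia, of which the 3 DEHP and 3 oil arrays of the same generation are used below. All of these fetuses carried the FVBxOG2 genotype, in which the OG2 transgene puts EGFP under Pou5f1 (Oct4) control and so marks germ cells. The DEHP mothers received 750 mg/kg/day, the BPA mothers 0.2 mg/kg/day, the VZ mothers 100 mg/kg/day and the oil mothers the corn oil vehicle alone, from 12.5 days post coitum (dpc). EGFP-positive cells were flow-sorted at 17.5 dpc, and their RNA was hybridised to Mouse Gene 1.0 ST arrays. The labels call the cells primordial germ cells in both sexes. The number of fetuses or litters pooled per array is not given in the sources used here, so p-values measure the spread between these arrays, which may be technical in part.

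DEHP is a plasticizer whose monoester activates peroxisome proliferator-activated receptors (PPARs), nuclear receptors that pair with RXR and switch on genes of fatty acid oxidation. Phthalates are also known for lowering androgen synthesis in the fetal testis. At the stage sampled, mouse oocytes pass through meiotic prophase, in which chromosomes are held along the synaptonemal complex while recombination repairs programmed DNA breaks, and they are about to be enclosed by pregranulosa cells as primordial follicles. Growth of the oocyte from that resting state is set off by the receptor KIT and PI3K signalling and held back by the transcription factor FOXO3.

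Signals are log2 values after robust multichip averaging (RMA), and array medians lay between 7.29 and 7.5 over all 32 arrays. The DEHP arrays correlated with each other at 0.9901 over all probes and with the oil arrays at 0.988 to 0.9897, while the oil arrays correlated among themselves at 0.9848 to 0.9904. The number of arrays, 2 against 3, limits the precision. Of 11 fetal oocyte markers, 9 were above all 6 prospermatogonia arrays in every female array, Ddx4 overlapped and Zp3 was lower in the females. All 4 Sertoli cell markers were below the prospermatogonia arrays in every female array.

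Over 35556 probes, 0 differed between DEHP and oil oocytes at an adjusted p of 0.05 (0% called; limma with Benjamini-Hochberg adjustment). At an unadjusted p under 0.05, 1086 probes were higher in DEHP oocytes (3.05%) and 1148 were lower (3.23%), of which 140 (0.394%) and 122 (0.343%) differed by at least 1.5-fold. With each array centred on its median the counts were 1359 higher and 883 lower, and with cyclic loess 1341 and 986. Among genes represented by their brightest probe, 3.56% of 19938 were higher and 3.3% lower at the unadjusted p, while in 13.2% both DEHP arrays lay above all oil arrays and in 10.8% both lay below. An exact permutation test of 2 arrays against 3 has 10 regroupings and a smallest two-sided p of 0.1, so it can call no single value. Because no gene passed the adjusted test in this fit, the genes below are given by their values, with the unadjusted p used only to count.

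Cpa3 and Tpsab1, the single-gene probes with the highest differences, and a few others are genes of mast cells, hematopoietic cells that store proteases in granules and depend on KIT and GATA factors. Cpa3, the mast cell carboxypeptidase, had log2 signals of 8.19 and 8.97 in DEHP oocytes, against 5.46, 5.32 and 5.31 in oil oocytes. Both DEHP arrays lay far above the narrow range of the oil arrays, and the difference was 3.21 (SE 0.634), or 9.28-fold (limma adjusted p = 0.196). Tpsab1, a mast cell tryptase gene that the annotation used here calls a transcribed pseudogene, had 6.97 and 7.67 in DEHP oocytes. The oil oocytes had 6.15, 6.08 and 6.02. Its difference was 1.24 (SE 0.245), or 2.36-fold (limma adjusted p = 0.196), again with no overlap. Tpsb2, the other measured tryptase, had 7.48 and 7.80 in DEHP oocytes, against 6.85, 6.78 and 6.95 in oil oocytes, a difference of 0.78 (SE 0.210; limma adjusted p = 0.573). Mcpt4, a mast cell chymase, had 5.62 and 5.98 in DEHP oocytes, against 4.95, 5.50 and 5.42 in oil oocytes, a dim signal with a difference of 0.51 (SE 0.157). The tryptases are close paralogs, so array probes for one could pick up RNA of the other.

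The promoters of Cpa3 and Mcpt4 are shown because both genes are known GATA targets in mast cells, and each window around the gene's start, most of it upstream (RefSeq, GRCm38.p6), holds GATAA, the core letters that GATA factors bind, in capitals. The Cpa3 window is chr3:20242132-20242431 on the minus strand, and the Mcpt4 window is chr14:56062261-56062560 on the minus strand, both printed 5′ to 3′ along the gene.
Cpa3: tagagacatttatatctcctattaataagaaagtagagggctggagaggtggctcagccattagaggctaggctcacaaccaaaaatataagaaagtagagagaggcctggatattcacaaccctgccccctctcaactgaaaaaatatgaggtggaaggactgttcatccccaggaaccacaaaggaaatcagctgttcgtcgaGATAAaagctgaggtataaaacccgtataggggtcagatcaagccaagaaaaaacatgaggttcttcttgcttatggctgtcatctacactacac
Mcpt4: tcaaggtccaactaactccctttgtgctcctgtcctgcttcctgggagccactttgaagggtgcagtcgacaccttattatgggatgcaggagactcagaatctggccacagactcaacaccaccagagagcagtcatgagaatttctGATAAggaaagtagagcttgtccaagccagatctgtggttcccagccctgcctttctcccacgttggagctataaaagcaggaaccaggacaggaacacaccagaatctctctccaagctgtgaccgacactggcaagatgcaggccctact
Each holds 1 match on both strands together, and 25.4% of 32851 promoters of that table hold at least 1, so a match is common. Of the genes in the plot of largest differences, 2 of 13 promoters on the higher side (Cpa3 and Mphosph6) hold GATAA. On the lower side 0 of 10 do. It is a description of the letters and marks no site or cause.

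Among other mast cell genes, Cma1, another chymase, had 6.33 and 6.37 in DEHP oocytes, against 6.05, 5.93 and 5.98 in oil oocytes, a difference of 0.36 (limma adjusted p = 0.797) with no overlap. Srgn, the proteoglycan core that packs granule proteases in many blood cells, had 8.71 and 8.90 in DEHP oocytes, against 8.52, 7.85 and 8.05 in oil oocytes, a difference of 0.66 (limma adjusted p = 0.650). Srgn was brighter still in prospermatogonia, 9.59 to 10.02 with DEHP and 9.23 to 9.72 with oil, so it is not particular to mast cells in these samples. Fcer1a and Ms4a2, chains of the IgE receptor, differed by -0.21 and 0.13, and Hdc, which makes histamine, by 0.16. Gata2 differed by -0.04. These genes and Cma1 and Srgn were named after their values were seen. The list of lymphocyte and mast cell markers was chosen with earlier results of these data known, so its count is no test. Of its 6 members 3 were higher at an unadjusted p and 0 lower, against 3.56% and 3.3% of all genes. Those 3 were Cpa3, Tpsb2 and Mcpt4, while the leukocyte genes Ptprc, Cd3e and Cd79a differed by 0.05, -0.09 and -0.16. In VZ oocytes against oil 3 members were also higher and 0 lower, beside 518 and 695 of all 19938 genes. Compared directly, 3 were higher in DEHP than in BPA oocytes (456 of all genes), and 0 differed between DEHP and VZ oocytes. The mean signal of the 6 markers was 6.81 and 7.02 in DEHP oocytes, against 6.03 to 6.29 in oil oocytes. RNA of sorted bulk cells does not show which cells carried it: more cells of a type and more RNA per cell cannot be told apart. The purity of the sort was not tested.

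**Figure D1:**
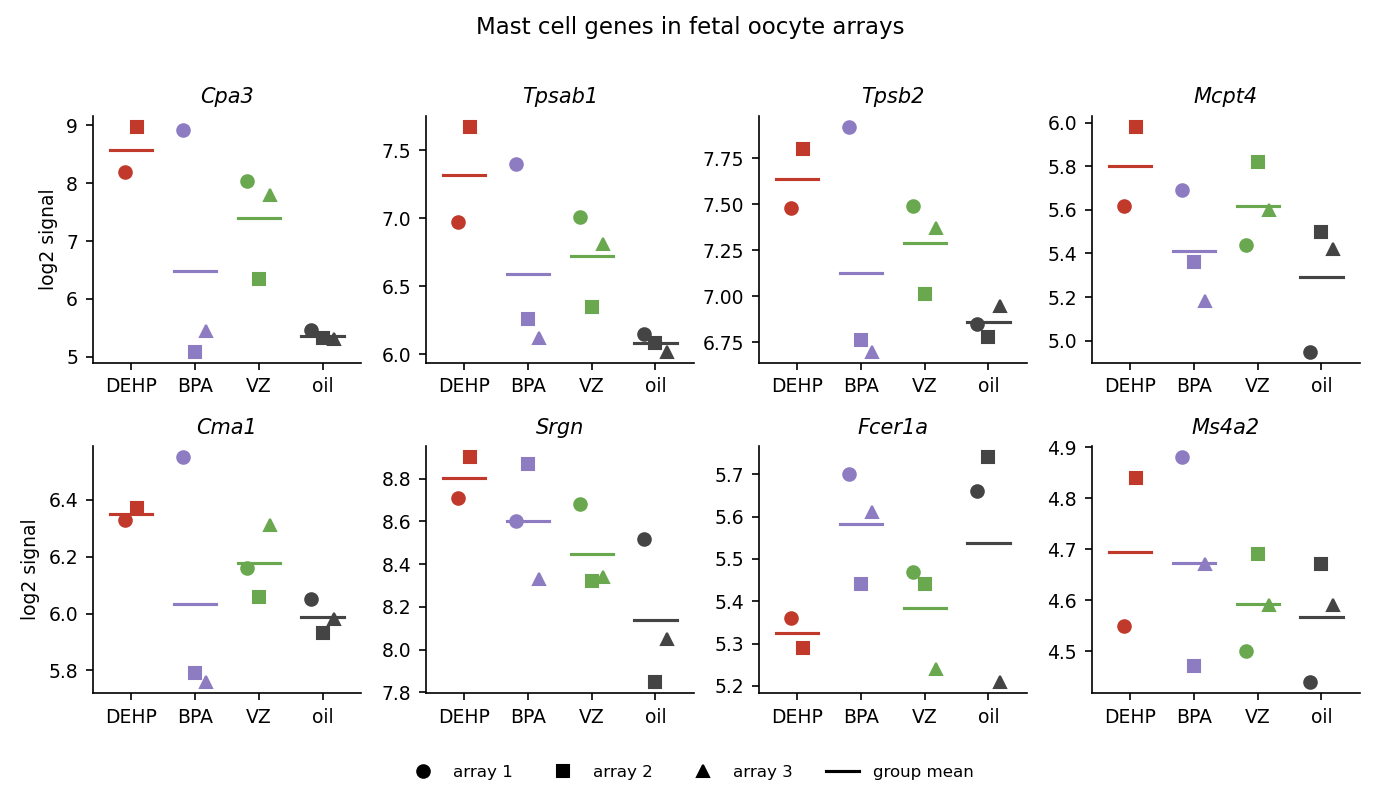
Log2 signal (y axis) of 8 mast cell genes in each oocyte array by exposure (x axis; lines are group means, symbols give the array number). Cpa3, Tpsab1 and Tpsb2 were high in both DEHP arrays, in BPA array 1 and, to a smaller extent, in VZ arrays, and low in all 3 oil arrays, while Fcer1a and Ms4a2 did not follow them.

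The same genes were uneven in the other exposures, which share the oil controls with DEHP. Cpa3 had 8.19 and 8.97 in DEHP oocytes, 8.92, 5.09 and 5.45 in BPA oocytes and 8.04, 6.34 and 7.79 in VZ oocytes. Tpsab1 had 7.40, 6.26 and 6.12 in BPA oocytes and 7.01, 6.35 and 6.81 in VZ oocytes, and Tpsb2 had 7.92, 6.76 and 6.7 in BPA oocytes and 7.49, 7.01 and 7.37 in VZ oocytes. BPA array 1 was thus as high as the DEHP arrays, and the other BPA arrays were at the level of oil. Compared directly, DEHP oocytes exceeded BPA oocytes in Cpa3 by 2.09 (SE 0.634; limma adjusted p = 0.790) and VZ oocytes by 1.19 (SE 0.634; limma adjusted p = 1). In prospermatogonia Cpa3 had 4.93 to 5.53 with DEHP and 5.27 to 5.58 with oil, and the sex-by-DEHP term was 3.33 (SE 0.851; limma adjusted p = 0.462). Because the fit shares 1 spread per probe over all arrays, BPA array 1 widened the error of these genes. Without it, an alternative added after seeing the data, 6 probes passed in DEHP against oil: Cpa3 (limma adjusted p = 2.89e-05), Tpsab1 (0.00259), Tpsb2 (0.00528), Tcl1b3 (0.00783), Gpr174 (0.0273) and probe 10344529 (0.0181), which the annotation table does not list. Cpa3, Tpsab1 and Tpsb2 were high in BPA array 1, so leaving it out was bound to narrow their spread and is no added support. In a fit of the 11 female arrays and in one of the 5 arrays compared, 0 probes passed, with 1885 and 1830 at an unadjusted p.

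Outside the mast cell genes, the lowest p belonged to that unlisted probe, with a dim signal of 4.60 and 4.67 in DEHP oocytes, against 3.67, 3.42 and 3.81 in oil oocytes (difference 1.00, SE 0.159; limma adjusted p = 0.0557). Gpr174, a lysophosphatidylserine receptor known from lymphocytes, had 6.54 and 6.69 in DEHP oocytes, against 6.03, 5.62 and 6.03 in oil oocytes. Its level in prospermatogonia was 4.88 to 5.05 with DEHP and 4.85 to 5.30 with oil, below every oocyte array. The sex-by-DEHP term of Gpr174 was 0.79 (SE 0.168; limma adjusted p = 0.433). Tcl1b3, of a cluster of Tcl1 genes expressed in mouse oocytes and early embryos, had 6.32 and 6.38 in DEHP oocytes, against 5.35, 5.18 and 5.22 in oil oocytes, a difference of 1.10 (SE 0.228; limma adjusted p = 0.257). BPA oocytes had 5.32, 6.66 and 6.09 and VZ oocytes 5.81, 6.11 and 5.46 for Tcl1b3, so oil lay at the low end and the difference from BPA was 0.33 (SE 0.228). Fxyd5, a regulator of the sodium pump that lowers cell adhesion, had 7.62 and 7.34 in DEHP oocytes, against 6.95, 6.97 and 6.98 in oil oocytes, a difference of 0.51 (SE 0.109; limma adjusted p = 0.257). Fxyd5 also had the smallest p of any single-gene probe in DEHP against BPA oocytes, where the difference was 0.61 (SE 0.109; limma adjusted p = 0.0885), and it exceeded VZ oocytes by 0.46 (SE 0.109; limma adjusted p = 0.713). The 4 groups thus placed DEHP highest for Fxyd5, with both DEHP arrays above all 9 other oocyte arrays.

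Mir10b is the only microRNA gene among the 10 single-gene probes with the smallest p. Its probe measures the transcript and not the mature strands, which are shown with bases 2 to 8, the seed, in capitals (RefSeq, GRCm38.p6, chr2:74726074-74726096 for 5p and chr2:74726114-74726135 for 3p, plus strand).
mmu-miR-10b-5p: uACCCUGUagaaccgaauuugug
mmu-miR-10b-3p: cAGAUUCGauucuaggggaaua
The Mir10b probe had 4.03 and 4.32 in DEHP oocytes, against 3.50, 3.74 and 3.66 in oil oocytes, a dim signal with a difference of 0.54 (SE 0.118; limma adjusted p = 0.308). The others among the 10 were Sfrp1, a secreted WNT antagonist with a difference of 0.64, Olfr1049, 3.83 and 3.66 in DEHP oocytes against 3.22, 3.21 and 3.31 in oil oocytes, and on the lower side Olfr600 (difference -0.52) and Pnma2 (difference -0.45). Pnma2, a paraneoplastic antigen gene of retrotransposon origin, had 5.76 and 5.91 in DEHP oocytes, against 6.29, 6.30 and 6.28 in oil oocytes.

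**Figure D2:**
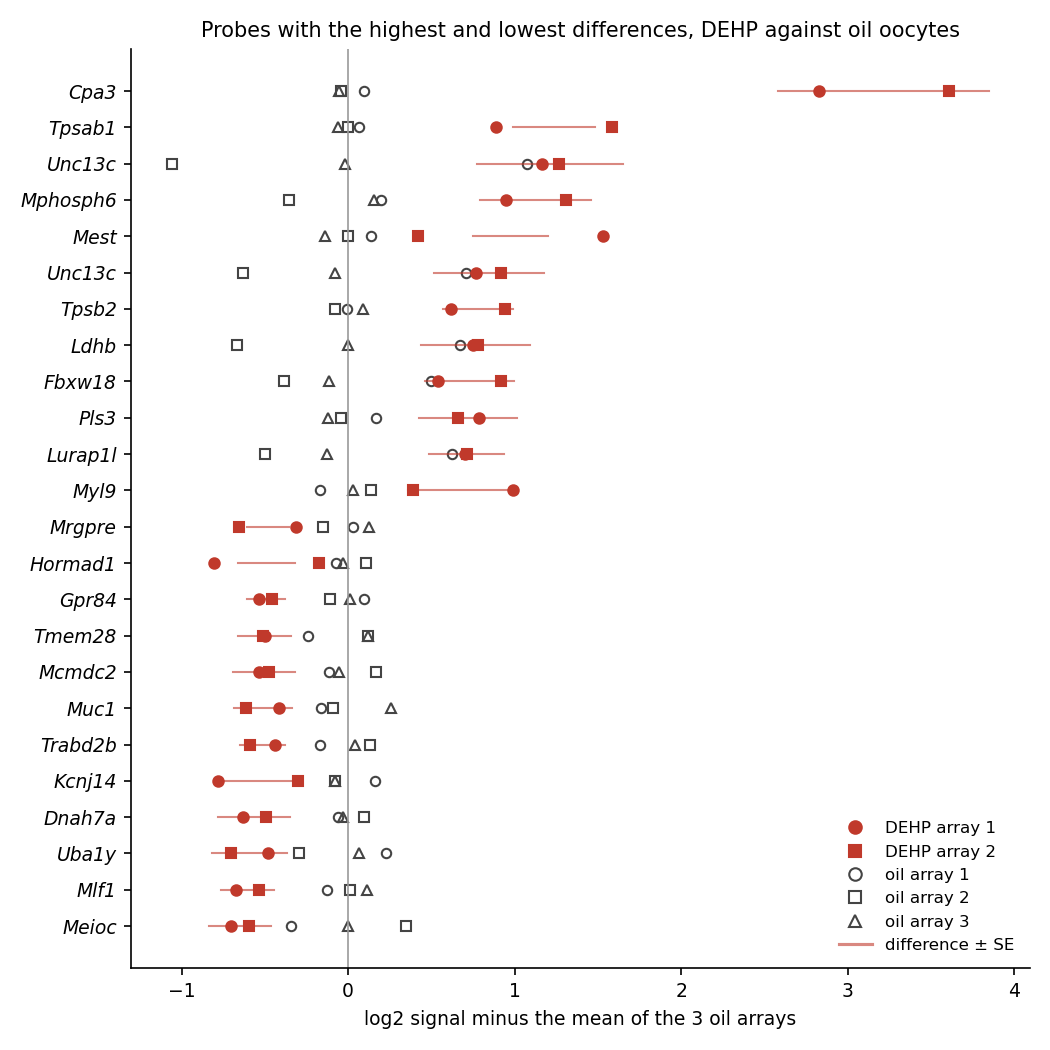
Log2 signal of each array minus the mean of the 3 oil arrays (x axis) for the 12 single-gene probes with the highest and the 12 with the lowest difference among those without overlap, with unadjusted p under 0.05 and at least 6.7 in a group (rows; filled symbols DEHP, open symbols oil, red lines the difference ± SE). For Unc13c, Ldhb, Fbxw18 and Lurap1l oil array 1 lay beside the DEHP arrays and oil array 2 lowest, while Cpa3, Tpsab1 and Tpsb2 were far from all oil arrays.

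The 24 probes in the plot of largest differences came from 943 that met its conditions, 582 higher and 361 lower. Ldhb, the heart-type lactate dehydrogenase subunit abundant in oocytes, had 10.33 and 10.36 in DEHP oocytes, against 10.25, 8.91 and 9.58 in oil oocytes. Lurap1l had 8.70 and 8.71 in DEHP oocytes, against 8.62, 7.50 and 7.87 in oil oocytes, and Fbxw18 had 7.85 and 8.23 in DEHP oocytes, against 7.81, 6.93 and 7.20 in oil oocytes. In each the DEHP arrays were above oil array 1 by little and above oil array 2 by much, so the differences (0.76, 0.71 and 0.73) rested on the oil arrays: without oil array 1 they were 1.10, 1.02 and 0.98, and without oil array 2 they were 0.43, 0.46 and 0.54. Unc13c, a presynaptic priming factor, has 7 single-gene probes, of which 3, the brightest in oocytes, were higher at an unadjusted p (differences 1.21, 0.85 and 0.50), while the probe with the highest mean over all arrays differed by -0.01. Mphosph6, an exosome cofactor, had 1 probe with a difference of 1.13 and a brighter probe with 0.22. Pls3, an actin bundler, had 7.26 and 7.13 in DEHP oocytes, against 6.64, 6.43 and 6.35 in oil oocytes, and its difference of 0.72 in oocytes stood beside 0.83 in prospermatogonia.

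Among the lower probes, Meioc had 9.37 and 9.48 in DEHP oocytes, against 9.73, 10.42 and 10.07 in oil oocytes. MEIOC works with the RNA helicase YTHDC2 to keep germ cells in the meiotic programme, and its difference of -0.65 (SE 0.186; limma adjusted p = 0.650) was the lowest of the 24. Mlf1, a gene named for a myeloid leukemia translocation, had 7.36 and 7.50 in DEHP oocytes, against 7.91, 8.05 and 8.15 in oil oocytes, a difference of -0.60 (SE 0.161; limma adjusted p = 0.555). Mcmdc2, an MCM-like protein of meiotic recombination, had 7.40 and 7.46 in DEHP oocytes, against 7.82, 8.10 and 7.88 in oil oocytes, a difference of -0.50 (SE 0.186). Hormad1, a meiotic axis protein, had 1 probe at 9.96 and 10.59 in DEHP oocytes, against 10.69, 10.87 and 10.73 in oil oocytes, and a brighter probe that overlapped (difference -0.20). The rest were not meiotic. Gpr84, a receptor for medium-chain fatty acids, differed by -0.49, Trabd2b, a WNT-inactivating protease, by -0.52 on 1 of its 2 probes (0.01 on the other), Muc1 by -0.51, Mrgpre by -0.48, Kcnj14 by -0.54, Dnah7a by -0.56 and Tmem28 by -0.50. Uba1y, a Y-linked gene at background in females, differed by -0.59 and -0.32 on a pair of probes and by 0.25 on 2 others. Those 2 had identical values in each DEHP and oil oocyte array, so they count as 1 measurement.

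The DR1 element, a direct repeat of AGGTCA with 1 base between the copies to which PPAR and RXR bind as a pair, was searched on both strands of the promoters of these genes, together with the single copy AGGTCA, which the repeat contains. Of the higher genes 9 of 11 had promoters in the table, 13 in all, with 0 holding the repeat and 2 holding AGGTCA (Ldhb and Pls3). Of the lower genes 9 of 12 had promoters, 10 in all, with 0 holding the repeat and 5, of 4 genes, holding AGGTCA (Gpr84, Hormad1, Mlf1 and Mrgpre). The windows of Hormad1 start 2 bases apart, so its match is counted on both of them. Over all 32851 promoters 0.0396% hold the repeat and 16.3% hold AGGTCA. The Mlf1 window, chr3:67373847-67374146 on the plus strand (RefSeq, GRCm38.p6), is shown because Mlf1 is the only lower gene holding AGGTCA that differed by more than 1.5-fold, with the letters in capitals.
Mlf1: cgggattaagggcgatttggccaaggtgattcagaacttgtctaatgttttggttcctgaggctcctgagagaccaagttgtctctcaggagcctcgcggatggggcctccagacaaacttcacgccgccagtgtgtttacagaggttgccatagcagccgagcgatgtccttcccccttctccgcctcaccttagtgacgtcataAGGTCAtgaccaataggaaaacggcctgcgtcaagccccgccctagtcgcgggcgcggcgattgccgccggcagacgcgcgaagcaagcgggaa
A match is no evidence of binding, and a missing match says only that the letters are absent from the window.

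Several genes that act on the way from dormancy to growth were on the higher side. Of 15 measured genes of dormancy and PI3K signalling, 5 were higher at an unadjusted p (33.3%, beside 3.56% of all genes) and 0 lower (3.3% of all genes). Both DEHP arrays lay above all oil arrays in 4 and below in 1, beside 13.2% and 10.8% of all genes, and the median difference was 0.11, against 0.00 over all genes. Kit had 12.23 and 12.22 in DEHP oocytes, against 12.04, 11.71 and 11.84 in oil oocytes, a difference of 0.36 (SE 0.0966; limma adjusted p = 0.552). Foxo3 had 11.46 and 11.22 in DEHP oocytes, against 10.99, 11.05 and 11.12 in oil oocytes, a difference of 0.29 (SE 0.0992). Both lay above every oil array, and they act in opposite senses, KIT starting growth and FOXO3 holding it back. Akt2 and Pdpk1, kinases between them, differed by 0.28 and 0.21, and Cdkn1b, the cell cycle inhibitor p27, by 0.45. The count of 5 was 1 without DEHP array 1, 2 without oil array 2, 3 without oil array 3 and 7 without oil array 1. Compared directly with BPA oocytes, Kit differed by 0.23 (SE 0.0966) and Foxo3 by 0.30 (SE 0.0992), and compared with VZ oocytes by 0.15 and 0.14.

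Genes of oocyte growth and of the maternal store showed the same oil arrays at the extremes. Of 14 maternal effect genes 3 were higher (Nlrp4b, Btg4 and Nlrp4f; 21.4%, beside 3.56% of all genes) and 0 lower, with a median of 0.19. Btg4, which triggers decay of maternal mRNA after meiosis, had 7.31 and 7.40 in DEHP oocytes, against 6.98, 6.53 and 6.75 in oil oocytes. Padi6, needed for the oocyte's cytoplasmic lattices, had 9.37 and 9.18 in DEHP oocytes, against 9.29, 7.66 and 8.42 in oil oocytes, a difference of 0.82 (SE 0.352) with oil array 1 inside the DEHP range. Zp2, of the egg coat and named after its values were seen, had 9.62 and 9.71 in DEHP oocytes, against 9.75, 8.49 and 9.08 in oil oocytes. The mean signal of the maternal list was 8.35 and 8.44 in DEHP oocytes, 8.04, 8.70 and 8.15 in BPA oocytes, 8.14, 8.37 and 8.24 in VZ oocytes and 8.35, 7.95 and 8.16 in oil oocytes. BPA array 2 was the highest of all, and oil array 1 matched DEHP array 1. The count of 3 was 6 without oil array 1, 1 without DEHP array 1, and 0 without DEHP array 2, without oil array 2 and without oil array 3. Of 11 growth factor and zona pellucida genes 2 were higher (Kit and Padi6) and 1 lower (Fgf8), beside 3.56% and 3.3% of all genes. Of 10 oocyte transcription factors 2 were higher and 0 lower. The higher ones were Foxo3 and Tbpl2, which replaces the general TATA-binding protein in oocytes. Kit and Foxo3 were already counted above under dormancy and PI3K signalling. Each list had 1 higher gene without oil array 2 and 1 without oil array 3. Without oil array 1 the growth list had 3 and the transcription factors 2. Their medians of 0.2 and 0.06 were 0.13 and 0.07 without DEHP array 1.

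**Figure D3:**
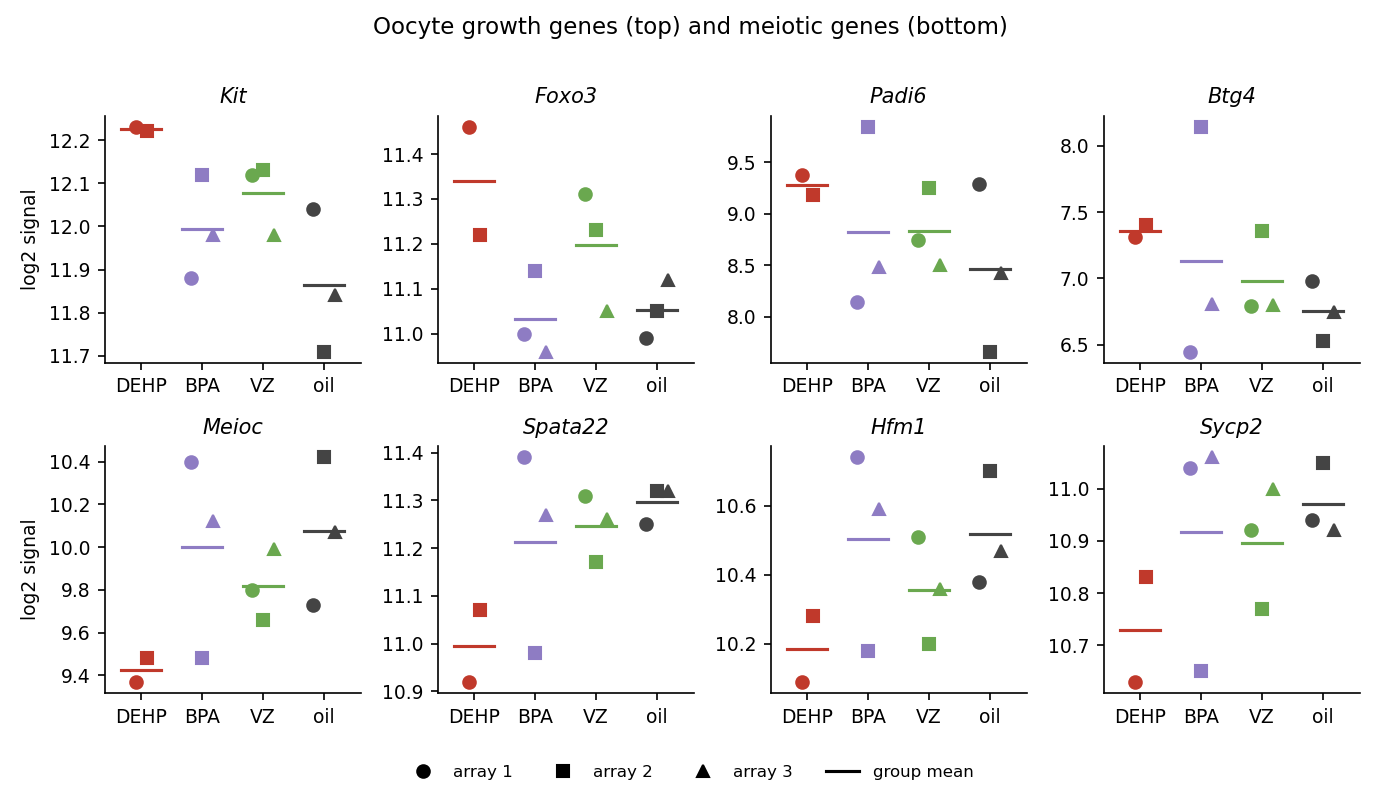
Log2 signal (y axis) of 4 growth genes (upper row) and 4 meiotic genes (lower row) in each oocyte array by exposure (x axis; lines are group means, symbols give the array number). The DEHP arrays were high for Kit and Foxo3 and low for Meioc, Spata22, Hfm1 and Sycp2 relative to oil, and BPA array 2 lay high for Padi6 and Btg4 and low for all 4 meiotic genes.

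Several meiotic genes were on the lower side. Of 18 measured genes listed under meiotic recombination 0 were higher and 4 lower at an unadjusted p (22.2% lower, beside 3.3% of all genes). Both DEHP arrays lay above all oil arrays in 1 and below them in 5, beside 13.2% and 10.8% of all genes. The 4 were Meioc, Spata22, Hfm1 and the dim Stra8, and the list's median was -0.09, between -0.14 and -0.03 on leaving out each array. Meioc and Stra8 are counted again below as lower genes of retinoic acid signalling. Meioc, as said above, acts on the meiotic programme, so the count does not stand for recombination proteins alone. Spata22, which loads onto single-stranded DNA at meiotic breaks, had 10.92 and 11.07 in DEHP oocytes, against 11.25, 11.32 and 11.32 in oil oocytes, a difference of -0.30 (SE 0.117). Hfm1, a helicase that promotes crossovers, had 10.09 and 10.28 in DEHP oocytes, against 10.38, 10.70 and 10.47 in oil oocytes, a difference of -0.33 (SE 0.134). Spo11, the enzyme that makes the breaks, differed by -0.23 and missed the unadjusted threshold. Of 13 genes of the synaptonemal complex and axis 0 passed in either direction, 3 lay below and 1 above, and the median was -0.15, between -0.20 and -0.02 on leaving out each array. The count of lower members was 3 without DEHP array 2, 2 without oil array 1, 1 without DEHP array 1, 2 with cyclic loess and 4 with array quality weights. Sycp2, an axis protein, had 10.63 and 10.83 in DEHP oocytes, against 10.94, 11.05 and 10.92 in oil oocytes, and Tex12, of the central element, had 9.44 and 9.75 in DEHP oocytes, against 9.83, 9.85 and 9.83 in oil oocytes. Without DEHP array 1 there was 1 lower recombination gene in place of 4, without oil array 2 there were 2, and the synaptonemal median of -0.02 was the one without DEHP array 1. BPA oocytes had Meioc at 10.40, 9.48 and 10.12, so BPA array 2, the highest for growth genes, equalled a DEHP array here. DEHP oocytes were below BPA oocytes in Meioc by a difference of -0.57 (SE 0.186) and below VZ oocytes by -0.39 (SE 0.186).

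The meiotic lists had medians of opposite sign in the sexes. In prospermatogonia, which do not enter meiosis before birth, the median DEHP difference was 0.11 for recombination genes and 0.11 for the synaptonemal list. The mean of the synaptonemal list there was 9.44, 9.39 and 9.48 with DEHP, against 9.15, 9.45 and 9.38 with oil. Its male difference thus rested on oil prospermatogonia array 1, as the other oil arrays lay near the DEHP level. For recombination genes the means were 8.23, 8.25 and 8.30 with DEHP, against 8.14, 8.18 and 8.18 with oil. The sex-by-DEHP term had a median of -0.21 in both lists and was negative at an unadjusted p in 3 of 18 and 4 of 13 members, with 0 positive in either, beside 4.71% of all genes negative and 3.73% positive. Spata22 differed by -0.30 in oocytes and 0.26 in prospermatogonia (term -0.56, SE 0.158; limma adjusted p = 0.480). Over all probes 0 passed the adjusted test for this term (0%), and 2656 passed the unadjusted p (7.47%). The smallest p of a single-gene probe was that of Dnah17, a dynein arm gene, with a term of 0.55 (limma adjusted p = 0.164), and it alone passed with unmoderated variances. Slco6b1, an organic anion transporter, had 4.93 and 5.05 in DEHP oocytes, against 5.27, 5.32 and 4.84 in oil oocytes, while it was higher by 0.89 in DEHP than in oil prospermatogonia (term -1.04, SE 0.250; limma adjusted p = 0.450).

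Several genes set the DEHP arrays apart from each other. Mest, an imprinted hydrolase gene, had 8.98 and 7.87 in DEHP oocytes, against 7.59, 7.45 and 7.31 in oil oocytes, a difference of 0.97 (SE 0.223; limma adjusted p = 0.352). It was 0.42 without DEHP array 1 and 1.53 without DEHP array 2, where it passed (limma adjusted p = 0.004). Sfrp1 had 7.11 and 6.73 in DEHP oocytes, against 6.24, 6.32 and 6.27 in oil oocytes, and the difference was 0.45 without DEHP array 1. For both genes each DEHP array was above each oil array, and array 1 was the higher. Both were brighter in prospermatogonia than in any oocyte array, Mest at 10.50 to 11.05 with DEHP and 10.05 to 10.29 with oil, and Sfrp1 at 9.93 to 10.36 with DEHP and 9.65 to 9.86 with oil. Lgr5, a marker of cortical pregranulosa cells and receptor for R-spondins, had 7.60 and 6.90 in DEHP oocytes, against 6.73, 6.87 and 6.96 in oil oocytes. Rspo1, an R-spondin of the fetal ovary, had 8.21 and 7.56 in DEHP oocytes, against 7.48, 7.59 and 7.71 in oil oocytes, and Kitl, the ligand of KIT made by pregranulosa cells and named after its values were seen, had 7.50 and 6.74 in DEHP oocytes, against 6.92, 7.19 and 6.76 in oil oocytes. For these 3, DEHP array 1 lay above the oil arrays and array 2 did not, Kitl being just below them there. Array 1 alone was also above oil for Igf2 (9.49 and 8.61 in DEHP oocytes, against 8.48, 9.06 and 8.64 in oil oocytes) and Amhr2, the receptor of anti-Mullerian hormone (7.63 and 7.14 in DEHP oocytes, against 7.04, 7.18 and 7.04 in oil oocytes).

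Over the 7 granulosa and pregranulosa markers measured, 2 were higher (Lgr5 and Amhr2; 28.6%, beside 3.56% of all genes) and 0 lower. None was without overlap, beside 13.2% of all genes above and 10.8% below. The count of 2 was 0 without DEHP array 1 and 0 without oil array 1. Against the 6 prospermatogonia arrays, 0 of the 7 were higher in every female array, 2 were lower and 5 overlapped. The mean of the list was 7.62 and 7.19 in DEHP oocytes, 7.13, 7.35 and 7.19 in BPA oocytes, 7.53, 7.46 and 7.51 in VZ oocytes and 7.10, 7.33 and 7.25 in oil oocytes. DEHP array 1 and all VZ arrays were thus above all other arrays, and DEHP array 2 was inside the oil range. The list's median of 0.16 became -0.03 without DEHP array 1 and 0.54 without DEHP array 2. Against VZ oocytes, DEHP oocytes differed by 0.01 in Mest (SE 0.223), by -0.13 in Amhr2 (SE 0.133) and by -0.33 in Kitl (SE 0.258). Among 43 imprinted genes 2 were higher (4.65%, beside 3.56% of all genes), Mest and the amino acid transporter Slc38a4, and 0 lower, and the count was 8 without DEHP array 2, 4 without oil array 2, 1 without oil array 1 and 0 without DEHP array 1. Of 38 WNT pathway genes 4 were higher (Sfrp1, Lgr5, Nkd1 and Fzd5; 10.5%, beside 3.56% of all genes) and 1 lower (Dkk2; 2.63%, beside 3.3%), and the count of higher genes was 1 without DEHP array 1 and 2 without oil array 1. Among 6 stroma markers 0 passed, Dcn having 7.68 and 7.09 in DEHP oocytes, against 6.72, 6.59 and 6.83 in oil oocytes. The part of somatic cells in these values was not tested.

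**Figure D4:**
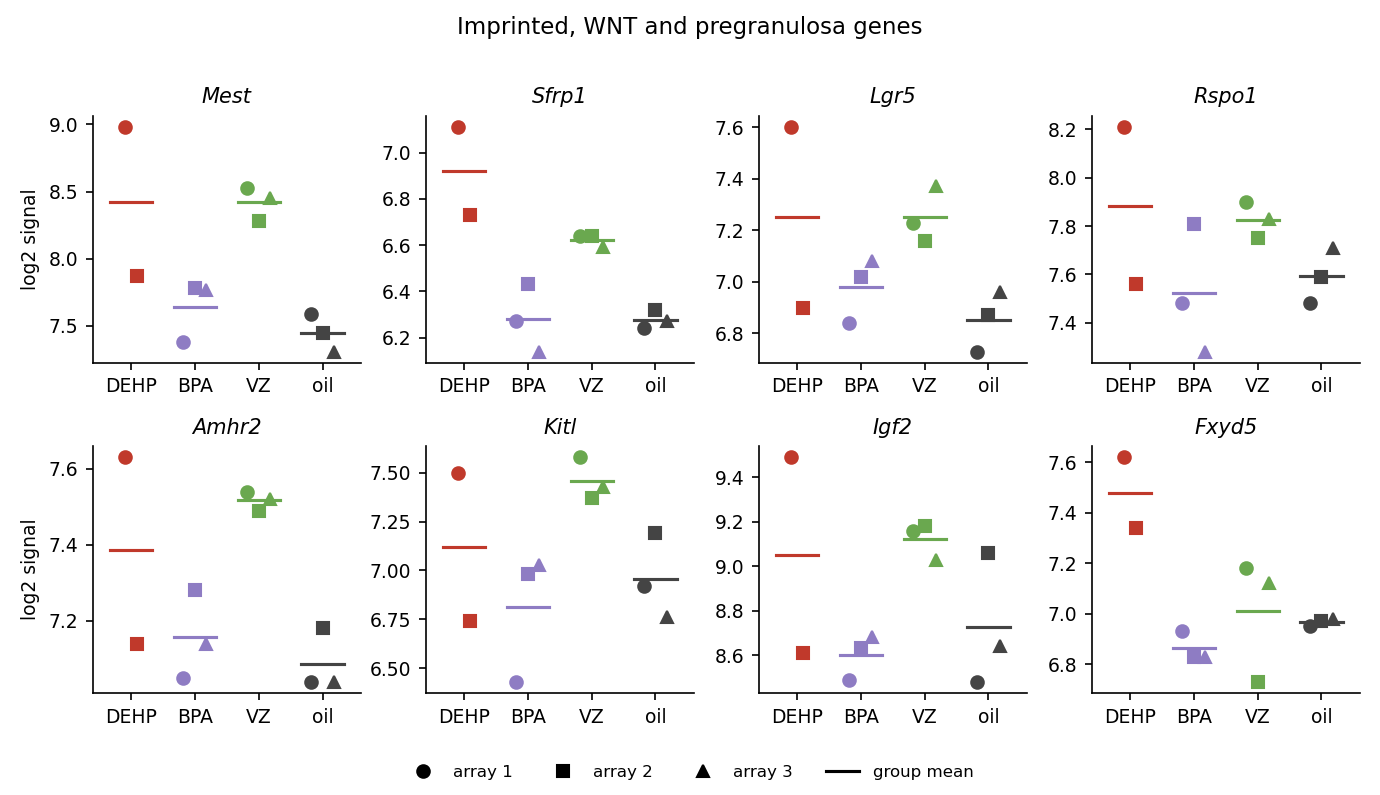
Log2 signal (y axis) of imprinted, WNT, pregranulosa and adhesion genes in each oocyte array by exposure (x axis; lines are group means, symbols give the array number). Mest, Sfrp1 and Fxyd5 were above oil in both DEHP arrays, whereas Lgr5, Rspo1, Kitl and Igf2 were above oil in DEHP array 1 alone, and all VZ arrays were high for Mest, Amhr2 and Kitl.

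Of 35 PPAR targets of fatty acid metabolism 4 were higher and 1 lower at an unadjusted p (11.4% and 2.86%, beside 3.56% and 3.3% of all genes). Both DEHP arrays lay above all oil arrays in 7 and below in 3, beside 13.2% and 10.8% of all genes, and the median was 0.02. Acadl, a mitochondrial acyl-CoA dehydrogenase, had 7.51 and 7.74 in DEHP oocytes, against 7.48, 7.42 and 7.21 in oil oocytes, a difference of 0.26 (SE 0.110). Hadha, of the mitochondrial trifunctional protein, had 10.89 and 10.85 in DEHP oocytes, against 10.74, 10.65 and 10.61 in oil oocytes, a difference of 0.20 (SE 0.0887). Acot1 and Acaa2 were the other 2 higher genes (differences 0.25 and 0.33) and Ucp3 the lower one (-0.24). The count of 4 was 1 without DEHP array 1, 2 without oil array 2 and 1 without oil array 3. For the PPAR list, VZ oocytes against the same oil arrays also had 4 higher and 1 lower, beside 518 and 695 of all 19938 genes. Compared directly, 1 was higher and 1 lower in DEHP than in VZ oocytes (292 and 284 of all genes). Against BPA oocytes 0 were higher and 1 lower (456 and 481 of all genes). Of 34 nuclear receptors and their partners 1 was higher (2.94%, beside 3.56% of all genes), Arnt, the partner of the dioxin receptor (0.22), and 0 were lower. Of 31 genes of xenobiotic metabolism 1 was higher (3.23%, beside 3.56% of all genes), the carboxylesterase Ces1d (0.39). Of 29 genes of the oxidative stress response 0 passed in either direction.

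In steroid synthesis 1 of 16 genes was higher (6.25%, beside 3.56% of all genes). Hsd3b6, a 3-beta-hydroxysteroid dehydrogenase, had 8.90 and 9.19 in DEHP oocytes, against 8.88, 8.24 and 8.07 in oil oocytes, a difference of 0.64 (SE 0.220; limma adjusted p = 0.743). Of the 16, 5 lay above all oil arrays and 1 below, beside 13.2% and 10.8% of all genes. Of 26 cholesterol genes 1 was higher (3.85%, beside 3.56% of all genes). This was Insig1, which retains the sterol sensor in the endoplasmic reticulum. Insig1 had 11.60 and 11.51 in DEHP oocytes, against 11.33, 11.02 and 11.12 in oil oocytes (difference 0.40, SE 0.124). Crabp1, a retinoic acid binding protein, had 9.71 and 9.70 in DEHP oocytes, against 9.41, 9.15 and 9.20 in oil oocytes (difference 0.45, SE 0.132). It was the 1 higher gene of 21 in retinoic acid signalling, where Meioc and Stra8 were lower. These were 4.76% higher and 9.52% lower, beside 3.56% and 3.3% of all genes. The genes shown for these arrays in the study are given by their differences in oocytes. Kmt2c differed by -0.01, Ehmt2 by 0.06, Inha by -0.07, Amh by -0.09, Hsd17b3 by -0.16, Prss35 by 0.24 and Gja1 by 0.29 (-0.23 without DEHP array 1), and none passed an unadjusted p.

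Genes of DNA replication were divided. Of 28 measured, 2 were higher and 2 lower at an unadjusted p (7.14% each way, beside 3.56% and 3.3% of all genes), and both DEHP arrays lay above all oil arrays in 11 and below in 4, beside 13.2% and 10.8%. Mcm7, of the replicative helicase, had 8.93 and 8.65 in DEHP oocytes, against 8.52, 8.17 and 8.40 in oil oocytes (difference 0.42, SE 0.142). Cdt1, which loads that helicase, had 9.02 and 8.75 in DEHP oocytes, against 8.56, 8.63 and 8.64 in oil oocytes, and Gmnn (geminin), its inhibitor, had 7.11 and 7.31 in DEHP oocytes, against 7.79, 7.38 and 7.40 in oil oocytes. Cdt1 was therefore on the higher and its inhibitor on the lower side, as was Ccne2, a G1 cyclin, with 9.33 and 9.48 in DEHP oocytes, against 9.63, 9.79 and 9.76 in oil oocytes. Without DEHP array 1, 0 of the 28 passed in either direction. Of 15 genes of oocyte attrition and apoptosis 2 were higher, the survival factor Mcl1 (0.27) and the death receptor Fas (0.27), and 0 lower (13.3% higher, beside 3.56% of all genes), while 6 lay above all oil arrays and 0 below. The count of 2 was 0 on leaving out either DEHP array, oil array 2 or oil array 3. Chek2, the checkpoint kinase that eliminates oocytes with unrepaired breaks, had 8.13 and 8.28 in DEHP oocytes, against 7.92, 7.85 and 7.83 in oil oocytes, but missed the unadjusted threshold (difference 0.34, SE 0.179).

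Abundant noncoding and ribosomal transcripts lay slightly lower. Of 54 small nucleolar RNAs, which guide modification of ribosomal RNA, 0 were higher and 1 lower (Snord35a, -0.30), yet both DEHP arrays lay below all oil arrays in 17 and above in 0, against 10.8% and 13.2% of all genes. The median was -0.18, between -0.27 and -0.06 on leaving out each array, with BPA and VZ oocytes at -0.12 and -0.20 against the same oil arrays. Snora3 had 11.20 and 11.74 in DEHP oocytes, against 12.17, 12.54 and 12.15 in oil oocytes, a difference of -0.81 (SE 0.407). Directly compared, the DEHP median was -0.01 against BPA and 0.06 against VZ oocytes, with 0 members passing in either comparison. Of 59 cytosolic ribosomal protein genes 0 were higher and 7 lower (11.9%, beside 3.3% of all genes), 20 lay below and 2 above all oil arrays, and the median was -0.10. In DEHP prospermatogonia against oil the median was -0.08. VZ oocytes against oil had 0 higher and 4 lower (518 and 695 of all 19938 genes). Directly compared with BPA oocytes, DEHP oocytes had 1 higher and 9 lower (456 and 481 of all genes). Against VZ oocytes 0 passed in either direction. Rps12 had 11.06 and 11.50 in DEHP oocytes, against 11.72, 11.63 and 11.54 in oil oocytes, and Rpl39l and Rpl23a differed by -0.37 and -0.26. The 7 lower genes became 1 without DEHP array 1.

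**Figure D5:**
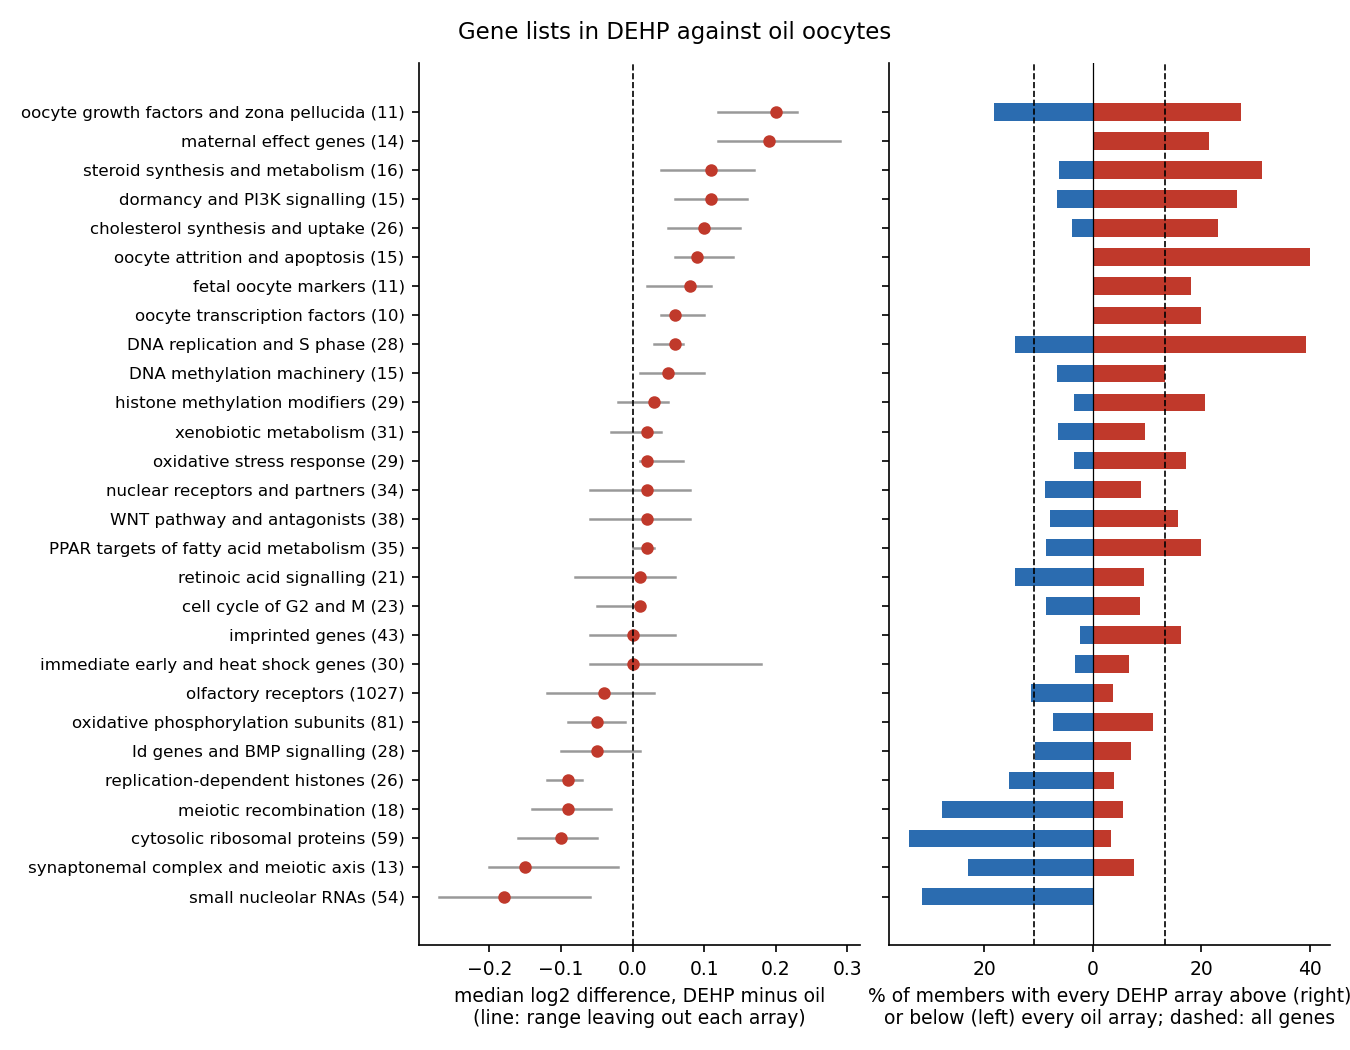
Gene lists with at least 10 measured members (rows, number measured in brackets): left, median log2 difference of DEHP minus oil oocytes, the line giving its range on leaving out each of the 5 arrays; right, the percent of members with both DEHP arrays above (right) or below (left) all oil arrays, dashed lines giving the 13.2% and 10.8% of all genes. Small nucleolar RNAs and the synaptonemal list had the lowest medians, and growth factor and maternal effect genes the highest.

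Compared directly with the other exposures, DEHP oocytes differed in 0 probes at an adjusted p from BPA oocytes (0%) and in 0 from VZ oocytes (0%), while 1796 (5.05%) and 1205 (3.39%) passed the unadjusted p. Sfrp1 was higher in DEHP than in BPA oocytes by 0.64 (SE 0.127; limma adjusted p = 0.178), the BPA arrays being at 6.27, 6.43 and 6.14. Against VZ oocytes the smallest p of a single-gene probe was that of the histone chaperone Nap1l1 (-0.54; limma adjusted p = 0.287), which differed from oil by -0.06, and next came Mir10b (0.55, SE 0.118; limma adjusted p = 0.626). Without BPA array 1, 4 probes passed between DEHP and BPA oocytes, of which Cpa3, Tpsab1 and Tpsb2 were the annotated ones. Because BPA array 1 was the high one for these genes, leaving it out was bound to widen their differences.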

How the data were processed

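The deposited values are log2 signals of Affymetrix Mouse Gene 1.0 ST arrays, which the authors normalised by RMA in the Partek suite (version not given in the sources used here), 1 array per sample, with total RNA of sorted cells as input. Groups were taken from the sample labels, and all 32 arrays in 11 groups had values. A mean per group was fitted to all arrays with limma 3.58.1 in R 4.3.3 (21 residual degrees of freedom), and contrasts were moderated by empirical Bayes and adjusted by the Benjamini-Hochberg method over 35556 probes at 0.05. The contrasts were DEHP against oil oocytes, the sex-by-DEHP term, and DEHP against BPA and against VZ oocytes. The annotation table gave 21789 probes to a single gene and 1621 to several and did not list 12146; symbols of 21698 probes were updated by Entrez identifier to GRCm38.p6, and only single-gene probes carry a gene name. A gene in a list was represented by its probe with the highest mean over all arrays. Genes were named by a rule: the 12 highest and 12 lowest differences among single-gene probes with unadjusted p under 0.05, no overlap and a group mean of at least 6.7, a level under which 33.3% of probe means lay; the 10 smallest p; up to 3 members of each of 39 gene lists; the genes shown in the study; and any probe past the adjusted threshold under some setting. The members, lists and the rule were chosen with earlier results of these data known, and further genes (those so described in the text, and list members or genes outside the rule named to complete a count or a comparison, such as Acot1, Acaa2, Cdkn1b, Pdpk1, Chek2, Gmnn, Spo11, Dkk2, Fzd5, Dnah17 and Nap1l1) after their values were seen. The script was tested on simulated arrays. Alternatives changed the arrays fitted, variance moderation, probe filter, between-array normalisation, weights and replicate block. They also left out, 1 at a time, each oocyte array and each DEHP or oil prospermatogonia array of the same generation. Leaving out arrays outside the comparison and the GATAA search were chosen after seeing the data. Tables and plots were made with Python 3.11.15, pandas 2.3.3 and matplotlib 3.10.9.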

Additional observations from a re-analysis of the deposited data

How the results depend on the processing

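Probes past the adjusted threshold in DEHP against oil oocytes numbered 0 in limma's fit of all arrays and 1 with single-gene probes only (Gpr174), 1 with cyclic loess and 1 with median centring (probe 10344529 in both), and 2 with array quality weights (both of these). On leaving out each of the 5 arrays the count was 0 to 4, with 4 without DEHP array 2 (Mest, Taar8c and 2 unlisted probes) and 1 without oil array 2. On leaving out arrays outside the comparison, which was chosen after seeing the data, it was 0 to 6, with 6 without BPA array 1, 2 without BPA array 2 and 2 without oil prospermatogonia array 2. Probes past 1.5-fold with unadjusted p numbered 140 higher and 122 lower; they were 36 and 27 with probes of mean signal of at least 6.7 and 33 and 16 with single-gene probes only, where fewer probes are tested. Without DEHP array 1 they were 211 and 201, without DEHP array 2 245 and 278, and without oil array 1 263 were higher, so on leaving out any 1 array, of the comparison or outside it, they ranged from 136 to 263 higher and 116 to 278 lower; where an array is left out the single DEHP array is assumed to vary like the other groups, and the cause of these shifts was not tested. The sex-by-DEHP count of 0 was 1 with unmoderated least squares (Dnah17), 1 without DEHP array 2 (Taar8c) and 1 without oil prospermatogonia array 2. Between DEHP and BPA oocytes the count of 0 was 4 without DEHP array 2 and 4 without BPA array 1, and between DEHP and VZ oocytes 5 without DEHP array 2. With the replicate number as a block 0 probes passed the adjusted test and 1948 the unadjusted p (883 higher, 1065 lower). Deviations of same-numbered DEHP and oil arrays from their group means correlated at -0.071 and -0.067. With 2 DEHP arrays their deviations mirror each other, so these values cannot show whether the numbers pair the arrays. Over named genes and settings, 4150 values kept their direction and side of the threshold, and 20 passed it only under the alternative. The other 23 changed sign without having passed, among them, without DEHP array 1, Igf2 (0.33, then -0.11), Rspo1 (0.29, then -0.03), Kitl (0.16, then -0.22) and Gja1 (0.29, then -0.23). Many settings (arrays left out outside the comparison, other variance moderation, probe filters) cannot change the difference itself. Since 0 probes passed in the main fit, keeping the side mostly meant failing again. Of the gene list summaries, 458 counts and 217 medians stayed alike, while 166 counts and 56 medians moved. Counts were taken as alike when equal or within 1.5-fold.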
